A study of Rattus norvegicus with 16 samples.

Results

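The transcript profile of the whole sciatic nerve of the rat 7 days after a crush injury was compared with that of the uncrushed nerve, across all genes. The comparison rests on 4 of the 16 libraries of the series, chosen by their labels: 2 labelled Whole Nerve 7d post-crush and 2 labelled Whole Nerve Uncrushed. The study sequenced RNA of whole nerve and of Schwann cells purified by immunopanning, either uncrushed or taken at 3, 5 or 7 days after the crush, with 2 libraries in each of 8 groups. It asked how the nerve and its Schwann cells change their gene expression during the first week after injury. The nerve was crushed with forceps at mid-thigh at postnatal day 18, no genetic modification is stated, and all groups carry the same age label. Only the nerve distal to the crush was taken, without dissociating the tissue, and the matching segment was taken from uncrushed nerves, which had no sham operation. Each RNA sample pooled at least 10 nerves, and the labels do not name the animals, so that the p-values measure the spread between such pools, which may be technical. The age of the uncrushed animals at collection is not stated apart from postnatal day 18, and the day 7 nerves were collected after a further week of growth, so that injury and age cannot be told apart.

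Schwann cells wrap peripheral axons, and the myelinating ones build a sheath rich in cholesterol and in a few abundant proteins such as myelin basic protein. When an axon is cut off from its cell body it degenerates, and the Schwann cells around it shut down myelin genes, take up a repair state marked by the transcription factor c-Jun, divide, and recruit macrophages that clear debris together with them. After a crush the tubes of basal lamina stay intact and axons grow back through them, after which Schwann cells can make myelin again. RNA of whole nerve holds all of these cells at once, with fibroblasts, perineurial cells, vessels and attached fat, muscle and blood. In such a mixture, fewer cells of a type and less RNA per cell cannot be told apart.

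Day 7 libraries held 13449491 and 13365985 expected counts, and the uncrushed libraries held 15635624 and 10555067. These are 2 libraries a group, and n = 2 holds for every value below unless stated. Of 31038 genes in the files, 15831 passed the filter on low counts and were tested. Levels are given as scaled FPKM, which is the deposited FPKM (fragments per kilobase of transcript, scaled for library size) divided by the TMM normalization factor of the library, so that they follow the same scale as the fold changes. Fold changes are log2 values of day 7 over uncrushed ± standard error from edgeR's quasi-likelihood test, with p-values adjusted over all genes tested by the Benjamini-Hochberg method and called below 0.05. A second number beside a fold change in brackets is this adjusted p. Markers of attached tissue differed between the uncrushed libraries. The summed level of 18 skeletal muscle genes was 77 and 1465 in the uncrushed replicates 1 and 2 against 137 and 9.88 at day 7, and that of 7 erythroid genes in the files was 1213 and 4618 against 1536 and 1228.

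Between day 7 and uncrushed, 4954 genes differed, 31.3% of those tested, of which 2444 (15.4%) were higher and 2510 (15.9%) were lower at day 7. At least a 2-fold change was called for 2096 genes. The scaled FPKM of the day 7 and uncrushed libraries did not overlap for 10029 of the 15831 genes tested (63.35%). The split of 49.3% higher calls moved with the fit: with upper quartile scaling of the same libraries 55.5% of 4973 calls were higher, and with all 16 libraries, Schwann cells included, which also changes the scaling and the filter, it was 60.7% of 4690. Against day 3, 3358 genes (21.2%) differed at day 7, 1560 (9.85%) higher and 1798 (11.4%) lower, and against day 5, 1172 genes (7.4%) differed. The count against day 3 fell to 1710 without day 3 replicate 1, 1632 without day 3 replicate 2 and 2235 without day 7 replicate 1. These contrasts share libraries with that against uncrushed, so their values are set side by side below and their calls are not compared. On the first principal component of the 8 whole nerve libraries, which held 56.2% of the variance, the day 7 libraries stood at 5.4 and 11.6, between the uncrushed libraries at -85.2 and -98.0 and the day 3 libraries at 48.1 and 48.7. On the second, with 13.1% of the variance, the day 7 libraries lay outside all other groups, at -40.7 and -40.1. Uncrushed libraries stood there at 11.1 and 12.6, day 3 at 33.1 and 30.4 and day 5 at -1.3 and -5.1.

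**Figure D1:**
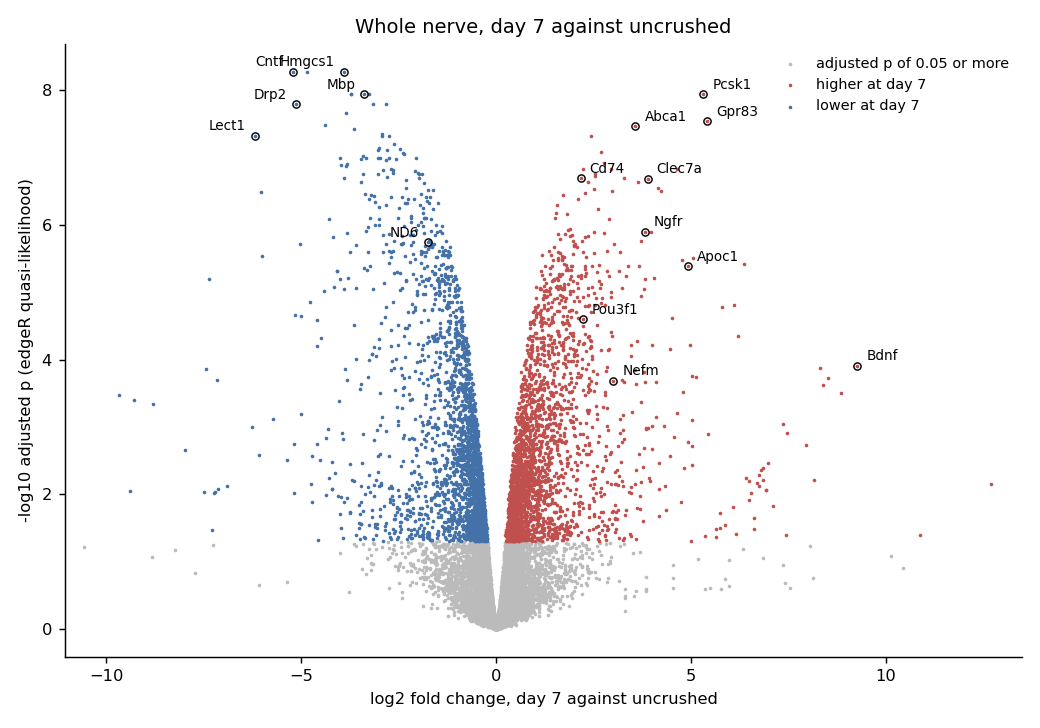
Each point is 1 of the 15831 genes tested in whole nerve, with the log2 fold change of day 7 over uncrushed on the x axis and -log10 of the adjusted p of edgeR on the y axis. The 2444 red points are higher and the 2510 blue points lower at day 7, and Lect1 at -6.19 and Gpr83 at 5.42 are among the circled genes named in the text.

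Among the genes that fell furthest were Cntf and Drp2, which are known from myelinating Schwann cells. By a rule that asked for a called difference, no overlap of the groups and a mean FPKM of at least 10 in the higher group, the 12 lowest and the 12 highest genes were taken. Ciliary neurotrophic factor, Cntf, a survival factor for motor neurons that myelinating Schwann cells store, stood at 254 and 277 scaled FPKM in the uncrushed libraries and at 7.47 and 6.77 at day 7. The groups lay far apart, with a log2 fold change of -5.22 ± 0.12 (edgeR adjusted p = 5.3e-09), and the 6.5 and 7.04 of day 3 differed from day 7 by 0.06 (edgeR adjusted p = 0.79). Lect1, which encodes chondromodulin, an inhibitor of vessel growth known from cartilage, fell from 143 and 171 to 1.81 and 2.51 (log2 fold change -6.19 ± 0.22, edgeR adjusted p = 4.7e-08). Drp2, a dystrophin-related protein that holds periaxin at the surface of the myelin sheath, fell from 273 and 281 to 7.86 and 8.03 (-5.13 ± 0.16, edgeR adjusted p = 1.6e-08). Mt3, a metal-binding metallothionein, stood at 171 and 205 uncrushed and 7.35 and 12 at day 7. Chst2, a sulfotransferase of carbohydrate chains, stood at 95.1 and 97.4 uncrushed and 4.92 and 4.18 at day 7. For these 5 genes the day 7 levels were far below the uncrushed levels in both libraries. The rest of the 12 lowest genes were Sept3 (a septin), Sptb (erythroid beta spectrin), Dcdc2 (a microtubule-binding protein), B3galt2 (a galactosyltransferase), Kcnk1 (a potassium channel), Vsnl1 (a neuronal calcium sensor) and Hmgcs1, with log2 fold changes between -5.16 and -3.90. For Cntf, Sptb, Chst2 and Kcnk1 the difference between day 7 and day 3 was at most 0.35 and did not pass the test, whereas Dcdc2 rose by 3.61 ± 0.56 and Mt3 by 2.04 ± 0.34 from day 3 to day 7 (edgeR adjusted p = 0.0014 and 0.0022).

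The 12 highest genes held receptors, secreted ligands, a protease and an apolipoprotein among others. Gpr83, a G protein-coupled receptor, was at 0.542 and 0.507 scaled FPKM uncrushed, 16.2 and 14.6 at day 3 and 20.6 and 25.1 at day 7, a log2 fold change of 5.42 ± 0.18 (edgeR adjusted p = 2.8e-08). Its highest time was day 5, at 31.6 and 35.4. Pcsk1, a protease that cuts prohormones, was at 0.259 and 0.322 uncrushed and 10.9 and 11.6 at day 7, down from 32.5 and 33.3 at day 3. Day 7 lay between uncrushed and day 3 for Pcsk1 (by -1.54 against day 3, edgeR adjusted p = 3.9e-06) and above day 3 for Gpr83 (by 0.57, 0.0061). Apoc1, an apolipoprotein, rose from 0.949 and 3.74 uncrushed through 21.5 and 18.4 at day 3 to 71.3 and 69.3 at day 7, a log2 fold change of 4.93 ± 0.36 against uncrushed (edgeR adjusted p = 4.1e-06) and of 1.84 ± 0.25 against day 3 (edgeR adjusted p = 0.00057). Ucn2, a peptide of the corticotropin-releasing family, reached 18.5 and 21.5 from 1.01 and 0.334. Sema3e, a secreted guidance cue, reached 13.8 and 19.1 from 0.875 and 0.866, and Clec7a, the beta-glucan receptor of myeloid cells, reached 15.4 and 17.8 from 0.925 and 1.66. Each was several times higher in both day 7 libraries than in either uncrushed one. Betacellulin, Btc, an EGF-family ligand, was at 3 counts or fewer in both uncrushed libraries and at least 15.3-fold higher at day 7, with 10.1 and 11.4 scaled FPKM. The rest of the 12 were Ngfr, Runx2, Rab3b (a GTPase of vesicle release), Slpi (a protease inhibitor) and Col1a2. Col1a2 was listed at 0.0246 and 0 uncrushed, 20.3 and 0 at day 3, then 0 and 0 at day 5 and then 45 and 270.4 at day 7, while its partner chain Col1a1 was at 1670 and 2183, 1261 and 1232, 1299 and 1355 and 1160 and 1599 at the same times. A gene that fibroblasts always use is thus listed at or near 0 in 5 of 8 libraries, so that its value is uncertain, no fold is given, and its call among the higher fibroblast and collagen genes below is uncertain too.

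**Figure D2:**
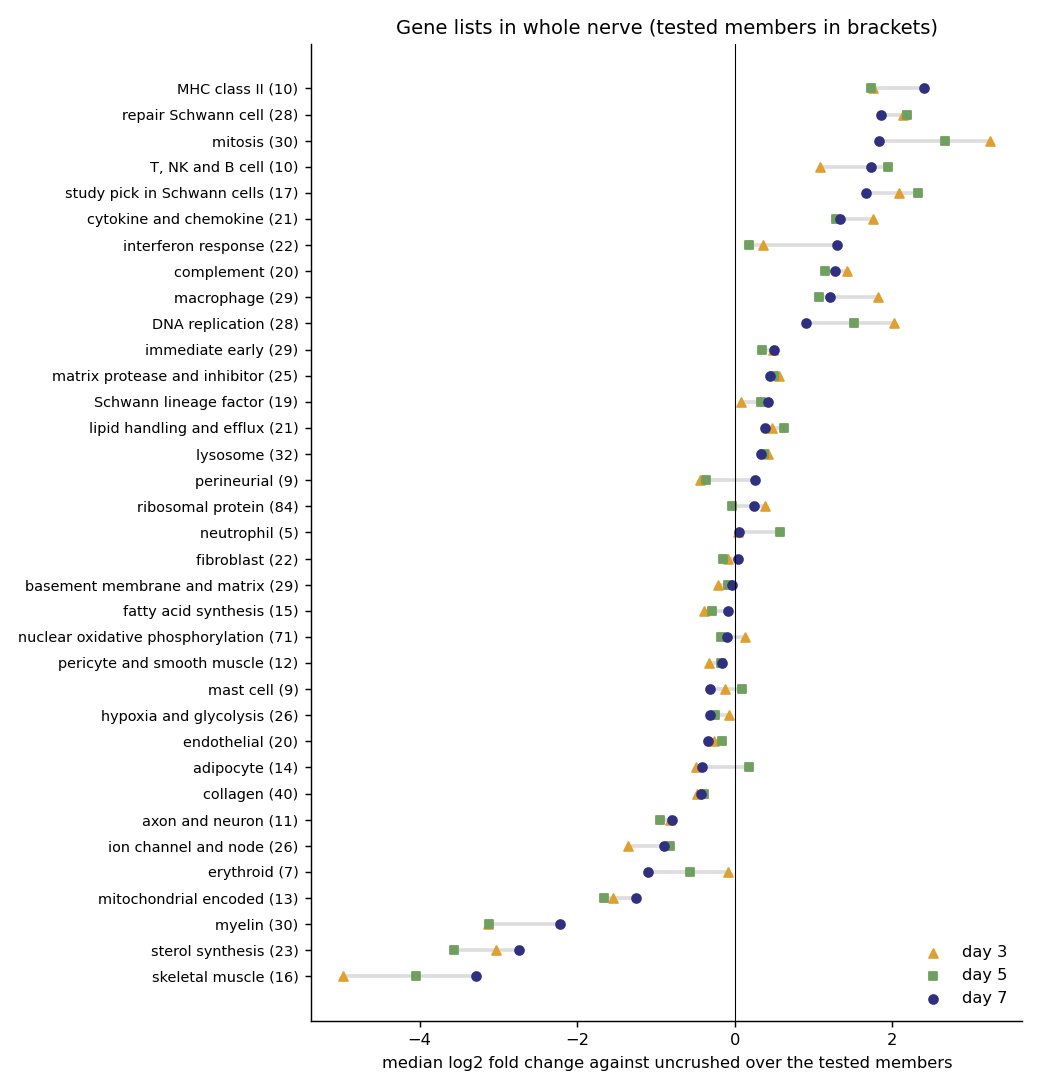
Each row is 1 of 35 gene lists, with the number of tested members in brackets, and the x axis gives the median log2 fold change over uncrushed of these members at day 3 (triangles), day 5 (squares) and day 7 (circles). At day 7 the medians run from -3.29 for skeletal muscle and -2.74 for sterol synthesis to 2.40 for MHC class II.

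Myelin genes stayed low at day 7 but had begun to come back. Of 30 myelin genes, all tested, 24 were lower and 1 was higher than in uncrushed nerve, beside 15.9% and 15.4% of all genes, with a median log2 fold change of -2.23 at day 7 and -3.14 at day 3, where the median of all genes was 0.02 and 0.00. Against day 3 directly, 23 of the 30 were higher and 0 were lower, beside 9.85% and 11.4% of all genes. Their summed level was 50610 and 61500 scaled FPKM uncrushed, 2906 and 2612 at day 3, 3672 and 4033 at day 5 and then 7173 and 7677 at day 7.

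Myelin basic protein, Mbp, which compacts the cytoplasmic side of the sheath, was at 6761 and 7267 uncrushed, 256 and 233 at day 3 and 681 and 662 at day 7. Both day 7 libraries lay above both day 3 libraries and far below both uncrushed ones, by -3.38 ± 0.09 against uncrushed (edgeR adjusted p = 1.1e-08) and by 1.49 ± 0.09 against day 3 (4.2e-06). Pmp22, the gene whose duplication causes Charcot-Marie-Tooth neuropathy, went from 20620 and 26530 through 469 and 383 to 2054 and 2393 (log2 fold change -3.41 ± 0.15). Pmp22 too lay above day 3 and below uncrushed in both day 7 libraries.

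Some genes of the myelin surface and its junctions rose several log2 units between day 3 and day 7. Claudin 19, Cldn19, a tight junction protein of the Schwann cell, was at 346 and 407 uncrushed, 4.66 and 3.73 at day 3 and 128 and 134 at day 7. Its difference from uncrushed was -1.51 ± 0.12 (edgeR adjusted p = 6.5e-06) and from day 3 it was 5.34 ± 0.15 (7e-08), the highest among genes that passed both tests with a mean FPKM of at least 10 in the highest group. Myelin-associated glycoprotein, Mag, which faces the axon, went from 30.9 and 35.6 through 0.348 and 0.193 to 9.96 and 9.42. Periaxin, Prx, the scaffold bound by Drp2, went from 306 and 330.0 through 1.99 and 1.19 to 41.5 and 37.8. Mag stood -1.80 from uncrushed and Prx -3.0, after -6.95 and -7.65 at day 3. Ncmap, a myelin membrane protein, was at 11.7 and 12.5 at day 7 against 137 and 156 uncrushed and 1.44 and 0.423 at day 3. In fold, Cldn19 and Mag stood nearer to uncrushed than Mbp, Prx and Ncmap did, a difference between genes that was not tested. The other 5 myelin genes did not pass the test at day 7, and Pmp22 was named after its values were seen.

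**Figure D3:**
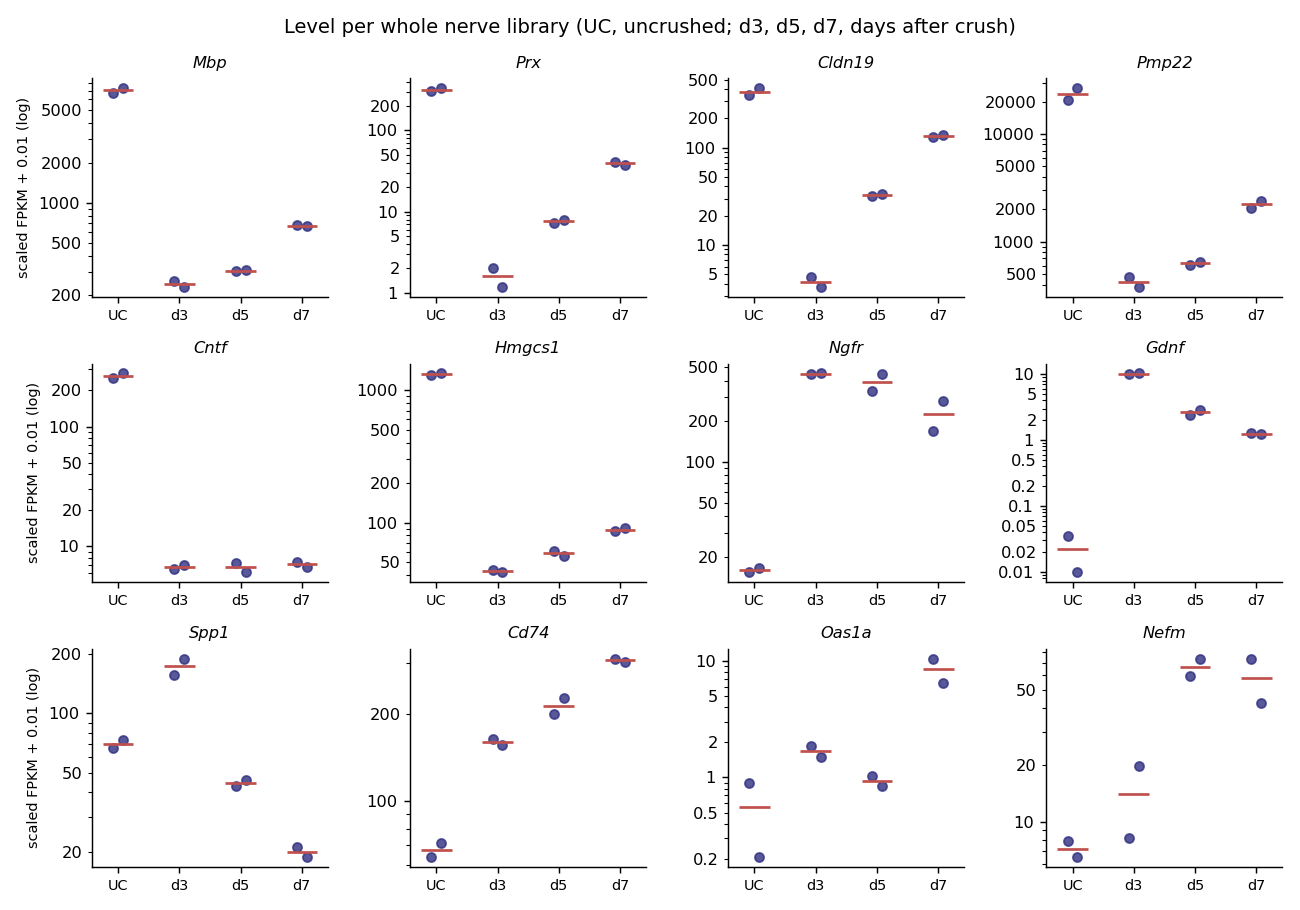
Each panel plots 1 gene in the 8 whole nerve libraries, as scaled FPKM plus 0.01 on a log axis, with points for libraries and a bar for the mean of each group of 2. Mbp, Pmp22, Prx and Cldn19 climb from day 3 to day 7, Cntf stays near 7 from day 3 on, Gdnf and Spp1 come down, and Cd74 and Oas1a are highest at day 7.

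Transcription factors of the myelin programme stood on both sides of uncrushed. Egr2, also called Krox20, the factor that switches myelin genes on, was at 44.6 and 51 uncrushed, 4.12 and 5.61 at day 3 and 14.8 and 18.1 at day 7, still lower than uncrushed (-1.54 ± 0.16, edgeR adjusted p = 4.1e-05) but up from day 3 by 1.76 ± 0.17 (6.9e-05). Pou3f1, or Oct6, which marks Schwann cells about to myelinate, was at 2.49 and 4.11 uncrushed, 2.63 and 2.31 at day 3 and 15.3 and 14.8 at day 7. It was the myelin list's single gene above uncrushed, by 2.22 ± 0.21 (2.5e-05), and rose by 2.61 ± 0.20 after day 3. Sox10, the factor all Schwann cells need, was at 34.7 and 48.1 against 26.5 and 35.5 uncrushed, a difference of 0.42 ± 0.16 that missed the threshold (edgeR adjusted p = 0.08), but passes with DESeq2 (0.042), the replicate block (0.027), all 16 libraries (0.025), upper quartile scaling (0.049), no filter, and without uncrushed replicate 2 (0.025) or day 7 replicate 1 (0.014). Sox2, a factor of immature Schwann cells, stayed up at 9.01 and 13.3 against 0.962 and 1.49, beside 12.5 and 14.8 at day 3. Of 19 tested Schwann cell lineage factors, 8 were higher and 2, Egr2 and Nab1 (a partner of Egr2), were lower, beside 15.4% and 15.9% of all genes, while 8 lay above day 3 and 0 below it, beside 9.85% and 11.4% of all genes.

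Sterol synthesis remained low as a whole pathway. All 23 genes of the list, which is made up mainly of enzymes of the mevalonate and cholesterol routes, were lower at day 7, beside 15.9% of all genes, with a median of -2.74 against -3.03 at day 3 and -3.56 at day 5. Their summed level was 3164 and 3385 uncrushed, 315 and 314 at day 3 and 418 and 421 at day 7. Of its members 10 were above day 3 and none was below it, beside 9.85% and 11.4% of all genes.

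Hmgcs1, the synthase that makes HMG-CoA, fell from 1303 and 1335 uncrushed to 85.8 and 90.7 at day 7, up from 43.5 and 42.5 at day 3. Its log2 fold change was -3.90 ± 0.09 (edgeR adjusted p = 5.3e-09), the furthest of the list. Idi1, the isomerase of isopentenyl diphosphate, stood at 9.37 and 8.75 against 119.5 and 142 (-3.85 ± 0.16, edgeR adjusted p = 1.3e-07). Squalene epoxidase, Sqle, went from 66.6 and 76.9 uncrushed through 14.1 and 16.9 to 10.4 and 12.7, and its difference from day 3 did not pass (-0.43, edgeR adjusted p = 0.091). The smallest change was that of Srebf2, the transcription factor that drives the pathway, at 3.46 and 3.71 against 8.96 and 10.5 (-1.44 ± 0.14, edgeR adjusted p = 3.4e-05). Idi1 was named after its values were seen.

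Of 15 fatty acid synthesis genes tested, 6 were lower and 1, Fasn, was higher (2 without day 7 replicate 1), beside 15.9% and 15.4% of all genes, with a median of -0.09. Only 3 were lower without day 7 replicate 1 or without uncrushed replicate 2. Elovl7, an elongase of long chains, fell from 83.3 and 86.2 to 4.94 and 6.92 (-3.84 ± 0.23, edgeR adjusted p = 1.3e-06). Scd, with the highest fold of the list, was at 277 and 437 against 223 and 193 and missed the threshold (0.78 ± 0.27, 0.051). By edgeR it passed with all 16 libraries (0.017), only the 4 compared (0.027), the replicate block (0.036) or upper quartile scaling (0.041). It also passed with at least 10 counts in every library (0.031) or no filter. Fatty acid synthase itself, Fasn, was at 25.4 and 36 against 18.8 and 22, a difference of 0.59 ± 0.20 (0.042) that no longer passed without day 7 replicate 2 (0.27), uncrushed replicate 1 (0.18) or uncrushed replicate 2 (0.058), or with DESeq2 (0.11).

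Cell division genes were above uncrushed and below day 3. All 30 mitosis genes were higher at day 7 than in uncrushed nerve, beside 15.4% of all genes, and all 30 were lower than at day 3, beside 11.4%. The median was 1.83 at day 7, 2.67 at day 5 and 3.24 at day 3, and the summed level was 125 and 123 uncrushed, 1105 and 1156 at day 3 and 405 and 406 at day 7. Ki-67, Mki67, carried by every dividing cell, was at 7.69 and 7.07 uncrushed, 64.6 and 65.3 at day 3 and 21.1 and 23.6 at day 7 (1.60 ± 0.11 against uncrushed, edgeR adjusted p = 3.1e-06). Topoisomerase IIa, Top2a, which untangles chromosomes, was at 9.26 and 8.75 uncrushed, 77.2 and 84.2 at day 3 and 32.2 and 34.5 at day 7. Ttk, a kinase of the spindle checkpoint, was at 1.58 and 1.21, at 19.7 and 21.1 and at 9.13 and 6.33 at these times. For each of these, the day 7 libraries lay between the other groups without overlap. Of 28 DNA replication genes, 24 were higher than uncrushed, none was lower, beside 15.4% and 15.9% of all genes, and 27 were below day 3, beside 11.4%. Their median was 0.91, smaller than the 2.02 of day 3. Rrm2, the ribonucleotide reductase subunit that S-phase cells make, was at 38.5 and 35.4 against 6.07 and 6.75 (2.53 ± 0.12, edgeR adjusted p = 1.9e-07), and Pcna, the polymerase clamp, at 107 and 113 against 76.2 and 62.1 (0.66 ± 0.10, 0.00086). Mcm4, Tyms, Gins2 and E2f1 were the members without a call.

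Because the sterol and the mitosis genes each moved as a block, the RefSeq promoters of both lists (GRCr8, 250 bases before to 50 after the gene start) were searched on both strands for CCAAT, the box bound by NF-Y, for TTTGAA, the core of the cell cycle homology region, and for GTGGGGTGA, a core of the sterol regulatory element. Of 98 matches in the 41 promoters found, 1 pair of matches to different strings shared bases. CCAAT was found in 14 of 17 sterol promoters (82.4%) and in 17 of 24 mitosis promoters (70.8%), and in 37.5% of all 33469 promoters. TTTGAA was found in 18 of the 24 mitosis promoters (75%), in 2 of the 17 sterol promoters (11.8%) and in 18.3% of all promoters. GTGGGGTGA was found in 0.484% of all promoters and in none of the 41 windows, and the other 6 genes of each list had no entry in the table. To let the windows be read beside the values, the promoters of 2 sterol and 2 mitosis genes described above show these boxes in capitals, as CCAAT or ATTGG and as TTTGAA or TTCAAA, the second spelling being the same letters on the opposite strand. A match describes the letters of the window and is not a measured binding site. Each is printed 5' to 3' in the direction of transcription, and lies at chr2:53382054-53382353 on the plus strand for Hmgcs1, at chr17:66547475-66547774 on the minus strand for Idi1, at chr10:84473044-84473343 on the minus strand for Top2a and at chr8:93634389-93634688 on the plus strand for Ttk.
Hmgcs1: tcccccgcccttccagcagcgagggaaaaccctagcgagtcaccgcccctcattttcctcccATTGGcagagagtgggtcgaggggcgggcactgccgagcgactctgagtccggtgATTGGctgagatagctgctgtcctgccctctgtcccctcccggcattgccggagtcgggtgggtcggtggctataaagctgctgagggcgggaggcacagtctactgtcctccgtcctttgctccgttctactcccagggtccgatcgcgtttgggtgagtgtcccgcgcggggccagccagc
Idi1: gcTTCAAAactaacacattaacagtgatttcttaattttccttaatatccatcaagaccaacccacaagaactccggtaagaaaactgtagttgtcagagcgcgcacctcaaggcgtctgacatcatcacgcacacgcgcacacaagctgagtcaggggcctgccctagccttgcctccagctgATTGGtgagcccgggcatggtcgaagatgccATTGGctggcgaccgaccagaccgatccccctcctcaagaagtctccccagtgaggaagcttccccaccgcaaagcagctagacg
Top2a: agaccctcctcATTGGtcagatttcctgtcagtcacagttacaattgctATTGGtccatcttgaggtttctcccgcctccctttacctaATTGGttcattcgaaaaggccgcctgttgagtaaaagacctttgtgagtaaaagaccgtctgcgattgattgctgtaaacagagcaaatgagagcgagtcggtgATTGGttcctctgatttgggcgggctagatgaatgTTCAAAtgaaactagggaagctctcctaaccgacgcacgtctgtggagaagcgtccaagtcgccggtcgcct
Ttk: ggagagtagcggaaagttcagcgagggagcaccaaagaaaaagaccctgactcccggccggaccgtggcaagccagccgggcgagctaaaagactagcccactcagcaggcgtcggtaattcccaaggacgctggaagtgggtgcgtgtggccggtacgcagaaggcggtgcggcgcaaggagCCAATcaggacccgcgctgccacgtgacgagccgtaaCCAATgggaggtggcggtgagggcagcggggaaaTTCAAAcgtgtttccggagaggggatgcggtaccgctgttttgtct

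Of the genes of the repair Schwann cell, more were above than below uncrushed, and more were below than above their day 3 level. Of 28 tested, 16 were higher and 5 (Spp1, Nrg1, Cdh2, Gap43 and Tgfbi) were lower than uncrushed, beside 15.4% and 15.9% of all genes, and 3 were lower without day 7 replicate 2. The median was 1.85, or 1.70 with the genes near 0 in uncrushed nerve set at their bound, and 5 genes (Bdnf, Ncam1, Gfap, Gfra1 and Id2) were above and 11 below day 3, beside 9.85% and 11.4% of all genes. c-Jun, Jun, the factor that drives the repair state, was at 12.7 and 11.6 uncrushed, 46.1 and 47.8 at day 3 and 33 and 41.9 at day 7 (1.62 ± 0.12, edgeR adjusted p = 5.4e-06), and its difference from day 3 did not pass (-0.33, 0.067). Ngfr, the p75 neurotrophin receptor of immature Schwann cells, was at 169.7 and 281 against 15.5 and 16.5 uncrushed and 445 and 451 at day 3 (3.82 ± 0.23, 1.3e-06). The day 7 libraries differed from each other for Ngfr, yet both stood well above uncrushed. Runx2, a transcription factor better known from bone, was at 10.7 and 12.4 against 1.02 and 0.767, and Atf3, an injury-induced factor, at 24.5 and 31.7 against 4.11 and 7.01.

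The growth factors Gdnf, Bdnf and Shh were near 0 in uncrushed nerve. Gdnf, which keeps motor neurons alive, was at 3 counts or fewer in each uncrushed library, at 10.2 and 10.3 scaled FPKM at day 3 and at 1.25 and 1.24 at day 7. That was at least 15.2-fold over uncrushed, and below day 3 (-3.03 ± 0.17, edgeR adjusted p = 3.9e-06). Brain-derived neurotrophic factor, Bdnf, which acts through TrkB on growing axons, was at 3 counts or fewer in each uncrushed library, 0.385 and 0.359 scaled FPKM at day 3 and 1.56 and 1.07 at day 7, at least 16.4-fold over uncrushed and higher than at day 3 by 1.84 ± 0.41 (0.012). From day 3 to day 7 Gdnf fell and Bdnf rose, both at low levels. Sonic hedgehog, Shh, was likewise at 3 counts or fewer uncrushed and at 0.969 and 0.72 at day 7, at least 4.37-fold higher. Osteopontin, Spp1, a secreted phosphoprotein of matrix and immune cells, went the other way after its peak. It stood at 66.8 and 73.8 uncrushed, 156 and 189.5 at day 3 and 21.1 and 18.8 at day 7, below both other groups, with -1.81 ± 0.12 against uncrushed (edgeR adjusted p = 2.5e-06) and -3.12 ± 0.12 against day 3 (3.8e-07). In purified Schwann cells Spp1 was instead higher at day 7 than uncrushed, by 1.32 (edgeR adjusted p = 1.5e-05). The effect in nerve minus that in Schwann cells was -3.045 (4.2e-07). Gap43, a growth cone protein that immature Schwann cells also carry, was lower too, at 7.82 and 6.98 against 20.8 and 11.5, a call lost without day 7 replicate 2 (edgeR adjusted p = 0.054) or uncrushed replicate 1 (0.095). Shh, Sox2, Atf3 and Gap43 were named after their values were seen. Of the 17 genes that the study picked in its Schwann cell libraries, 10 were higher and 6 lower in whole nerve at day 7, beside 15.4% and 15.9% of all genes. This list is no independent evidence of its direction. Among them Sparcl1, a matrix glycoprotein, was at 61.6 and 59.9 against 152 and 186. Sema5a, a guidance molecule, was at 14.9 and 18.4 against 163 and 206, so that both were lower.

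Rgs16, Mt2A and Edn3 had fallen from day 3 but were still above uncrushed. Rgs16, a brake on G protein signalling, was at 1.69 and 1.13 uncrushed, 25.4 and 29.9 at day 3 and 5.81 and 3.32 at day 7 (2.35 ± 0.32, edgeR adjusted p = 0.0003). Mt2A, a metallothionein induced by stress and metals, was at 20.3 and 17.8 uncrushed, 198 and 255 at day 3 and 48.6 and 43.7 at day 7. Endothelin 3, Edn3, a secreted peptide of neural crest development, was at 1.87 and 3.21, at 42.1 and 30.5 and at 6.46 and 9.15. In all 3 genes the day 7 libraries were above both uncrushed libraries and below both day 3 libraries.

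Most macrophage genes were above uncrushed and below their day 3 level. Of 29 tested, 25 were higher and 1 was lower than uncrushed (none without day 7 replicate 1, uncrushed replicate 1 or uncrushed replicate 2), beside 15.4% and 15.9% of all genes, with a median of 1.21 at day 7 and 1.81 at day 3. Below day 3 lay 23 of them, beside 11.4% of all genes, and 1, Apoe, lay above it. Cd68, a lysosomal protein of macrophages, was at 13 and 13.1 uncrushed, 62.2 and 59.9 at day 3 and 40.0 and 41.8 at day 7 (1.65 ± 0.11, edgeR adjusted p = 2.6e-06). Csf1r, the receptor that macrophages live on, was at 40.2 and 49 against 32.6 and 33.8, a small difference of 0.43 ± 0.11 (0.011) that did not pass without day 7 replicate 2 (0.063) or uncrushed replicate 1 (0.058), or with all 16 libraries (0.17). Gpnmb, a glycoprotein of lipid-laden macrophages, was at 92.5 and 99.2 against 14.5 and 15.4, down from 140.3 and 159. From day 3 to day 7 the level fell in Cd68, Csf1r and Gpnmb, while Clec7a, with the highest fold of the list, did not pass that test (0.11, edgeR adjusted p = 0.59). Apolipoprotein E, Apoe, a lipid carrier of injured nerve, climbed from 259 and 279 uncrushed through 608 and 634 to 1505 and 1406 (2.43 ± 0.09 against uncrushed, 4.7e-08). Gpnmb and Apoe were named after their values were seen.

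The summed level of antigen presentation genes was higher at day 7 than at days 3 and 5. Of 10 MHC class II genes, 9 were above uncrushed, all but RT1-DMa, and none was below, beside 15.4% and 15.9% of all genes, with a median of 2.40 (2.23 with RT1-DOa and RT1-DOb, near 0 in uncrushed nerve, at their bound) after 1.75 at day 3. Against day 3, 5 (Cd74, RT1-Da, RT1-Db1, RT1-Ba and RT1-Bb) were higher and 0 lower, beside 9.85% and 11.4% of all genes. Their summed level was 108 and 123 uncrushed, 325 and 290.4 at day 3, 363 and 411 at day 5 and then 578 and 567 at day 7. Cd74, the invariant chain that guides class II molecules, was at 63.9 and 71.5 uncrushed, 164 and 157 at day 3 and 311 and 303 at day 7 (2.17 ± 0.10 against uncrushed, edgeR adjusted p = 2e-07, and 0.96 against day 3, 9.1e-05). RT1-Da, an alpha chain, was at 18.3 and 24.3 uncrushed, 65.2 and 56.7 at day 3 and 124 and 118 at day 7. RT1-Bb, a beta chain named after its values were seen, was at 1.43 and 1.15, at 4.86 and 3.75 and at 11.7 and 11.7. For these 3 genes both day 7 libraries exceeded all 6 others of whole nerve, those of day 5 included. Ciita, the master regulator of the class, was low throughout, at 0.818 and 0.886 against 0.222 and 0.359 (1.5 ± 0.34, edgeR adjusted p = 0.0073, and 0.063 without uncrushed replicate 1).

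Most interferon-response genes were above uncrushed at day 7, and some were above day 3. Of 22 tested, 17 were above uncrushed and none below, beside 15.4% and 15.9% of all genes, with a median of 1.30 at day 7 against 0.36 at day 3 and 0.18 at day 5, and 11 were above and 1, Gbp2, below day 3, beside 9.85% and 11.4% of all genes. The summed level was 1553 and 1490 at day 3 and 1783 and 1486 at day 7, so that these groups overlapped. Oas1a, an enzyme that senses double-stranded RNA, was at 0.888 and 0.198 uncrushed, 1.84 and 1.48 at day 3 and 10.5 and 6.52 at day 7 (3.80 ± 0.47, edgeR adjusted p = 0.00015). Isg15, a ubiquitin-like protein, was at 2.16 and 0.743 uncrushed, 5.36 and 6.62 at day 3 and 22.3 and 11 at day 7. Irf7, the factor that amplifies interferon, was at 2.76 and 1.58, at 3.24 and 2.77 and at 8.41 and 5.76. Mx1, an antiviral GTPase named after its values were seen, was at 6.82 and 4.02 uncrushed, 3.21 and 4.2 at day 3 and 26.1 and 17.8 at day 7 (2.01 ± 0.34, edgeR adjusted p = 0.0014). In all 4 genes both day 7 libraries were the highest of the 8, and replicate 1 exceeded replicate 2. Without day 7 replicate 1 the list still had 14 members above uncrushed, and 1, Ifit1, below it.

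**Figure D4:**
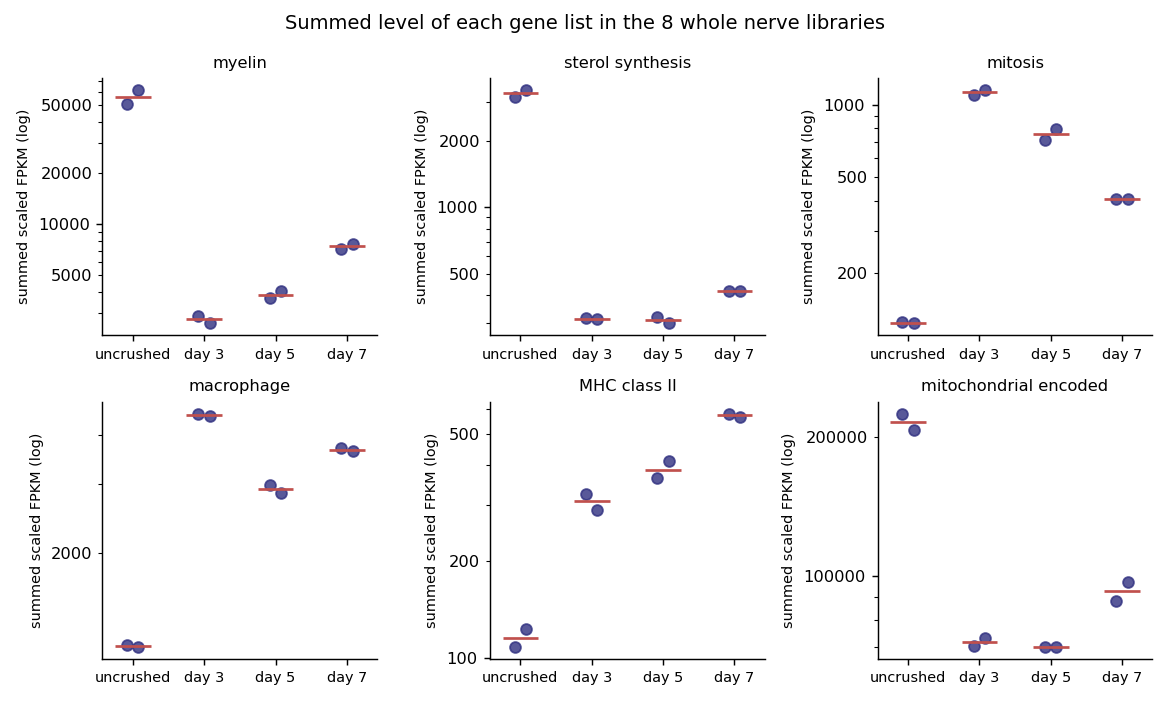
Each panel sums the scaled FPKM of 1 gene list in each of the 8 whole nerve libraries, on a log axis, with points for libraries and a bar for the mean of each group of 2. Myelin, sterol synthesis and mitochondrial genes lie below uncrushed at day 7, mitosis and macrophage genes lie above it, and MHC class II is highest at day 7, at 578 and 567 against 108 and 123 uncrushed.

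For complement, cytokine and lysosome genes, the counts stand beside 15.4% of all genes higher and 15.9% lower, and the lower share was under that of all genes in each list. Complement genes were higher in 17 of 20 and lower in 2, the membrane inhibitors Cd55 and Cd59 (1 without day 7 replicate 1 or uncrushed replicate 2), with a median of 1.27. C3, the central component, was at 3.5 and 4.96 against 0.949 and 1.03 while C1qa, of the first component, was at 49.2 and 35.6 against 17.8 and 15. The groups did not overlap for either, as for 63.35% of all genes tested. Cytokines and chemokines were higher in 12 of 21 (7 without uncrushed replicate 1) and lower in 1, Cxcl12. With all 16 libraries the calls of Cxcl12 (edgeR adjusted p = 0.076) and Cd55 (0.073) were lost. Ccl2, the chemokine that draws monocytes, was at 15.6 and 20 uncrushed, 459 and 589 at day 3 and 146 and 109 at day 7 (2.85 ± 0.19, edgeR adjusted p = 2.4e-06). Il1b, an early inflammatory cytokine, was at 0.874 and 1.16 against 0.629 and 0.21 and did not pass (edgeR adjusted p = 0.13). Lysosome genes were higher in 16 of 32 (10 without uncrushed replicate 1) and lower in 3, Ctsk, Asah1 and Smpd1 (1 without day 7 replicate 2 or uncrushed replicate 1, none without uncrushed replicate 2), with a median of 0.34 (0.28 with Atp6v0d2 at its bound). The protease cathepsin D, Ctsd, was at 116 and 105 against 69.8 and 66.3, while Lamp1, a membrane protein of every lysosome, was at 224 and 243 against 198 and 215 and did not pass (edgeR adjusted p = 0.146, but 0.032 with all 16 libraries).

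Lipid handling genes were higher in 10 of 21 and lower in 1, Fabp5, beside 15.4% and 15.9% of all genes. Abca1, which exports cholesterol to apolipoproteins, was at 8.86 and 8.47 uncrushed, 90.4 and 97.9 at day 3 and 100.2 and 106 at day 7 (3.57 ± 0.12, edgeR adjusted p = 3.4e-08). Its difference from day 3 did not pass (0.13, 0.43), and like Apoe and Apoc1 it was above uncrushed where the sterol synthesis genes were below.

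Few lymphocyte transcripts were measured. Of 20 listed T, NK and B cell genes 10 passed the filter, 5 of them (Cd4, Cd8a, Cd8b, Nkg7 and Il7r) higher and none lower, beside 15.4% and 15.9% of all genes, with a median of 1.74 (1.64 with genes near 0 at their bound). Cd8b, a chain of the CD8 co-receptor, was at 1.91 and 1.48 at day 7 with 3 counts or fewer uncrushed, at least 6.15-fold higher. Cd3e, which every T cell carries, was at 0.479 and 0.637 and did not pass (edgeR adjusted p = 0.07, but 0.042 with no filter), and the B cell genes Cd79a and Ms4a1 did not pass the filter. Only 5 of 12 neutrophil genes passed the filter, with 1 higher (Csf3r, at 0.526 and 0.619 against 0.246 and 0.161, lost without day 7 replicate 2 or uncrushed replicate 2, with DESeq2, all 16 libraries or only the 4 compared) and 1 lower (Lcn2, at 5.05 and 7.73 against 23.1 and 29.1), with 1 call in each direction of so few genes being near the shares of all genes. Of 9 mast cell genes, a share below that of all genes was called in each direction: 1 was higher, Mcpt2, and 1 lower, Cpa3, the mast cell carboxypeptidase, at 149.6 and 164 against 236 and 229.6, beside 15.4% and 15.9% of all genes. The call of Cpa3 was lost with all 16 libraries (edgeR adjusted p = 0.297).

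Of 29 immediate-early genes, 10 were higher and 4 (Egr2, Nr4a2, Klf4 and Arc) lower, beside 15.4% and 15.9% of all genes, so that the lower calls were near the share of all genes. That of Arc was lost without day 7 replicate 1 (edgeR adjusted p = 0.081), day 7 replicate 2 (0.0971) or uncrushed replicate 1 (0.0855). Fos, a partner of c-Jun, was at 8.88 and 12.9 against 3.04 and 2.51 (1.96 ± 0.23, edgeR adjusted p = 0.0001). Egr3, a relative of Egr2, was at 1.5 and 1.36 uncrushed, 2.18 and 3.06 at day 3, 7.42 and 9.14 at day 5 and then 7.56 and 10.0 at day 7 (2.54 ± 0.23, 1.6e-05), whereas Egr1 at 26.5 and 33.1 against 13.4 and 26.8 did not pass (edgeR adjusted p = 0.12), although it did with the replicate block (0.031), with no filter and, at a log2 fold change of 1.16, without uncrushed replicate 2 (0.0027).

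Of the axonal and neuronal genes, transcripts of the medium and light neurofilament chains were higher. Neurofilament medium chain, Nefm, was at 7.87 and 6.5 uncrushed, 8.16 and 19.8 at day 3, 59.4 and 73.4 at day 5 and then 73.3 and 42.9 at day 7 (3.00 ± 0.38, edgeR adjusted p = 0.00021). The light chain, Nefl, was at 13.9 and 13.6, at 11 and 33.8, at 75.4 and 95 and at 78.1 and 35.4 at these times (2.04 ± 0.48, edgeR adjusted p = 0.0083, and 0.067 without day 7 replicate 1). For both chains day 7 replicate 1 was higher than replicate 2, and both lay above uncrushed. Tubb3, neuronal tubulin, was at 2.1 and 2.14 against 2.16 and 2.98, the heavy chain Nefh was at 0.094 and 0.0739 against 0.456 and 0.384 and did not pass (edgeR adjusted p = 0.059, but 0.019 with only the 4 libraries compared and 0.047 with no filter), and peripherin, Prph, was lower at 0.489 and 0.573 against 1.46 and 1.56, a call lost without any 1 of the 4 libraries (edgeR adjusted p = 0.067 to 0.103) and with DESeq2 (0.089). Of 11 tested, 2 were higher (1 without day 7 replicate 1) and 3 (Ret, Prph and Snap25) lower, beside 15.4% and 15.9% of all genes, with 1 lower without day 7 replicate 1 or uncrushed replicate 1. In purified Schwann cells the day 7 effect was 3.00 for Nefm and 2.56 for Nefl, and the difference from whole nerve did not pass (edgeR adjusted p = 0.93 and 0.7). Purified Schwann cells at day 7 held 5944 and 3754 counts of Nefm and 4046 and 2849 of Nefl, so that both transcripts were measured there too. Nefh and Prph were named after their values were seen.

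For fibroblast, perineurial and vascular lists the counts stand beside 15.4% of all genes higher and 15.9% lower. Of 22 fibroblast genes, 6 were higher and 5 (Col1a1, Col3a1, Lum, Postn and Osr2) lower (2 without day 7 replicate 1), with a median of 0.04, and Pdgfra, their growth factor receptor, was at 34.9 and 34 against 35 and 38.2. Of 9 perineurial genes, 3 were higher, Msln, Moxd1 and Cdkn2b (5 without uncrushed replicate 2), and 2 lower, Slc2a1 and Ntn4. Mesothelin, Msln, was at 5.62 and 5.46 against 0.542 and 0.557 (3.33 ± 0.25, edgeR adjusted p = 5.6e-06), while claudin 1, Cldn1, which seals the perineurium, was at 183 and 141 against 100.1 and 170.5 with overlapping groups. The difference of Cldn1 did not pass (0.26, edgeR adjusted p = 0.37), but did with no filter (0.0275), and it was 0.698 without uncrushed replicate 2. None of 20 endothelial genes was higher (1, Cdh5, without day 7 replicate 1) and 10 were lower (6 without day 7 replicate 1 or without uncrushed replicate 1), with a median of -0.34. Mfsd2a, a lipid transporter of vessels with a barrier, was at 1.32 and 1.55 against 4.51 and 5.57 (-1.80 ± 0.25, 0.00037), while Pecam1, carried by all endothelium, was at 14.7 and 15.4 against 14.4 and 16. Cdh5, the cadherin of endothelial junctions, was at 48.7 and 61.4 against 46.9 and 47.7 and did not pass (0.014 by edgeR without day 7 replicate 1). Pericyte and smooth muscle genes had 2 of 12 higher, Tagln and Mcam, and 3 lower, Myh11, Des and Abcc9, of which none passed without day 7 replicate 1 and 1 without uncrushed replicate 1. The share of higher calls among these was near that of all genes. Tagln, a contractile protein, was at 49.4 and 40.9 against 21.3 and 17.1 (1.22 ± 0.14, 0.0001).

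Most calls on genes of attached tissue changed when 1 library was left out, and over all genes 15.4% were higher and 15.9% lower. Of 16 tested skeletal muscle genes 8 were lower, with a median of -3.29 (-3.23 with Myh3 at its bound), but Acta1, muscle actin, was at 9.97 and 174 uncrushed and 11.4 and 0.332 at day 7, with uncrushed replicate 2 far above the rest. Without that library 1 muscle gene was called, without uncrushed replicate 1 it was 15 and without day 7 replicate 2 it was none. Erythroid genes had 1 of 7 lower, near the share of all genes, with 7 lower without uncrushed replicate 1 and none without any of the other 3 libraries. Adipocyte genes had 1 of 14 higher, Cfd, whose call was lost without any of these libraries but uncrushed replicate 1, and 2 lower, Pck1, which passed without any 1 library, and Lipe (6 without uncrushed replicate 2), both shares lying under those of all genes. The call of Cfd was also lost with DESeq2 (adjusted p = 0.132) and with only the 4 libraries compared (edgeR adjusted p = 0.068). Adipoq, the hormone of fat, was at 318 and 299.9 against 405 and 211.

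Matrix genes were called in both directions, as were all genes, at 15.4% higher and 15.9% lower. Of 40 collagen genes 16 were lower and 7 higher, with a median of -0.43. Col28a1, a collagen of Schwann cells, fell from 17.4 and 20.7 to 2.12 and 2.29 (-3.11 ± 0.16, edgeR adjusted p = 4.5e-07), and Col1a1, the main fibrillar chain, was at 1160 and 1599 against 1670 and 2183, a difference of -0.48 ± 0.16 that did not pass without day 7 replicate 1 (0.27) or uncrushed replicate 2 (0.24), with DESeq2 (0.098), all 16 libraries (0.13), only the 4 libraries compared (0.11) or upper quartile scaling (0.053). Basement membrane and matrix genes were higher in 9 of 29 and lower in 5, Lama2, Dag1, Itga6, Sparc and Postn, the lower share being near that of all genes (1 without day 7 replicate 1, 3 without uncrushed replicate 2). Laminin alpha 2, Lama2, of the Schwann cell basal lamina, was at 68.2 and 88 uncrushed, 32.1 and 35 at day 3 and 58.9 and 63.3 at day 7, up from day 3 by 0.86 ± 0.12 (edgeR adjusted p = 0.0008). Its difference from uncrushed of -0.35 ± 0.12 did not pass when any 1 of the 4 libraries except uncrushed replicate 1 was left out, nor with all 16 libraries, only the 4 compared, or median of ratios or upper quartile scaling. Of 25 matrix proteases and inhibitors, 7 were higher and 6 lower. Timp1, an inhibitor of metalloproteases, was at 176 and 188 against 79.2 and 86.6 (1.15 ± 0.09, 8.9e-06), while Mmp16, a membrane-bound metalloprotease, was at 2.5 and 3.33 against 7.42 and 7.56 (-1.47 ± 0.18, 0.00013).

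Of 26 ion channels and proteins of the node of Ranvier, 17 were lower and 1, Kcnj10, was higher at day 7, beside 15.9% and 15.4% of all genes. Against day 3, 10 were above and 4 below, beside 9.85% and 11.4% of all genes, the latter share being close to that of all genes. Kcna1, a potassium channel next to the node, was at 148 and 193 uncrushed, 7.63 and 4.16 at day 3 and 13.8 and 18.6 at day 7 (-3.40 ± 0.25, edgeR adjusted p = 4.4e-06), and its partner Kcna2 was at 88.5 and 128, at 2.06 and 1.43 and at 12.3 and 14.8. Kcnj10, or Kir4.1, the channel by which glia buffer potassium, changed sides, with 3.73 and 3.85 uncrushed, 0.884 and 0.828 at day 3 and 13.6 and 14.8 at day 7 (1.88 ± 0.15 against uncrushed, 6.3e-06, and 4.0 ± 0.16 against day 3, 3.8e-07). The groups did not overlap in either comparison, which against uncrushed held for 63.35% of all genes tested.

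Transcripts of the mitochondrial genome took a smaller share of the day 7 libraries, 7.81% and 8.83% of counts, against 15.6% and 14.2% uncrushed. All 13 protein genes of that genome were lower, with a median of -1.25 after -1.54 at day 3, and 6 of them were above day 3, beside 9.85% of all genes. ND1, a subunit of complex I, was at 3831 and 4402 against 11090 and 10350 (-1.39 ± 0.11, edgeR adjusted p = 6.3e-06), and ND6, read from the other strand, at 364 and 388 against 1306 and 1226 (-1.76 ± 0.11, 1.8e-06). Of the 71 nuclear genes of oxidative phosphorylation none was higher and 7 were lower, both under the shares of all genes, with a median of -0.10. Atp5b, the catalytic chain of ATP synthase, was at 458 and 421 against 508 and 469. Hypoxia and glycolysis genes were lower in 9 of 26 and higher in 2, Pgk1 and Pgam1 (1 without day 7 replicate 1 or uncrushed replicate 2). Aldoc, an aldolase of glia, was at 40.6 and 47.3 uncrushed, 2.33 and 3.26 at day 3 and 11.8 and 15.9 at day 7 (-1.67 ± 0.21, 0.00018). Ribosomal protein genes were higher in 32 of 84 and lower in 1, Rps4x, with a median of 0.24, and 15 to 16 were higher without day 7 replicate 1, uncrushed replicate 1 or uncrushed replicate 2. The call of Rps4x was lost without day 7 replicate 1 (edgeR adjusted p = 0.13), day 7 replicate 2 (0.053) or uncrushed replicate 1 (0.15), and with all 16 libraries, only the 4 libraries compared, upper quartile scaling or no filter (0.055 to 0.16). Over all genes, 15.4% were higher and 15.9% lower, to be set beside each of these lists.

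To see where the tissue differs from its Schwann cells, the day 7 effect of whole nerve was tested against the day 7 effect of purified Schwann cells in a fit of all 16 libraries. The effects differed for 4367 of 16829 genes (25.9%), being higher in whole nerve for 2419 (14.4%) and lower for 1948 (11.6%). Across the 15831 genes of both fits the log2 fold changes had a Pearson correlation of 0.306 and a Spearman correlation of 0.315, a description over genes, which are not independent and share the libraries of each group.

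Higher or lower in nerve refers here to the day 7 log2 fold change, with its sign, and not to the level. The effect on myelin genes was lower in whole nerve than in Schwann cells for 18 of 30 and higher for 3, Cadm3, Mpdz and Pou3f1, their median being -2.23 in nerve and -1.01 in Schwann cells. For Mbp the effect was -1.29 in Schwann cells, and its difference from the effect in nerve passed the test (edgeR adjusted p = 1.2e-06). Sterol genes had medians of -2.74 in nerve and -2.10 in Schwann cells, with 10 of 23 lower in nerve and 2 higher. Mitosis genes were higher in nerve for 23 of 30 and lower for none. The 13 mitochondrial genes were all lower in nerve, where Schwann cells had a median of 0.69, and interferon genes were higher in nerve for 17 of 22, where Schwann cells had -0.64. Jun was above uncrushed in nerve and stood at -0.62 in Schwann cells, a difference of 2.33 ± 0.16 (edgeR adjusted p = 2.2e-07). Fos (3.70 ± 0.25, 1.7e-07) and Ccl2 (4.92 ± 0.36, 3.9e-07) differed in the same direction. Mean FPKM of Jun, Fos and Ccl2 was 396, 948 and 485 in uncrushed Schwann cells and 270, 316 and 130 at day 7. In uncrushed nerve their mean scaled FPKM was 12.1, 2.78 and 17.8. The Schwann cell effects are thus falls from a high uncrushed level. Schwann cells were dissociated before RNA was taken while nerve was not, a step whose part in these differences was not tested here. The paper excepts immediate early genes from its expectation of little change during purification, and reports a comparison of whole with dissociated nerve. For macrophage genes, whose cells the purification depletes by CD45, the day 7 effect was higher in nerve for 7 of 29, beside 14.4% of all genes, and lower for none. The median difference of the list was 1.15. Some members had few Schwann cell counts, such as Clec7a with 1 and 0 uncrushed and 4 and 7 at day 7. Its difference was 0.98 ± 3.14, so that a missing call there does not show equal effects. Ribosomal protein genes were lower in nerve for 23 of 84, nuclear oxidative phosphorylation genes for 40 of 71, beside 11.6% of all genes, and neither list had a member higher in nerve.

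**Figure D5:**
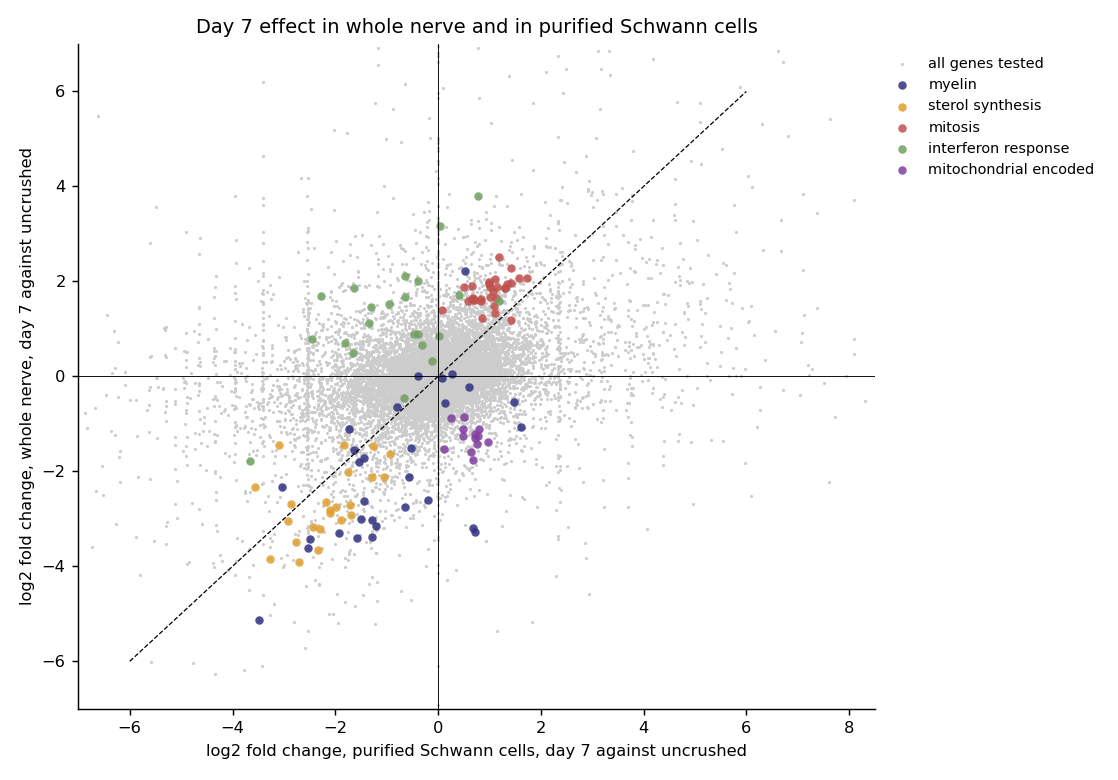
Each point is a gene, with the day 7 log2 fold change over uncrushed in purified Schwann cells on the x axis and in whole nerve on the y axis, and the dashed line marks equal effects. Myelin, sterol, mitosis, interferon and mitochondrial genes are coloured, 60 genes lie outside the plotted range, and the 13 mitochondrial genes sit below 0 in nerve and above 0 in Schwann cells.

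Several of the largest single differences had Schwann cell counts near 0 in one group. Sfrp5, a Wnt antagonist, did not pass in whole nerve, at 21.5 and 13.4 against 19.6 and 28.8 scaled FPKM, and had 742 and 606 counts in uncrushed Schwann cells but 1 and 0 at day 7. Rab3b had 3 and 1 counts in uncrushed Schwann cells and 749 and 590 at day 7, and stood at 1.49 and 1.23 and then 16.5 and 19.7 scaled FPKM in nerve. Its effects differed (edgeR adjusted p = 7.2e-05), and no difference is given since no uncrushed Schwann cell library exceeded 3 counts. Bcat1, an enzyme of branched-chain amino acids, fell in nerve from 18.4 and 21.1 to 11.6 and 12.6 and went from 10 and 5 to 222 and 188 counts in Schwann cells (-5.15 ± 0.33, 1.3e-07). Ndp, the Wnt-type ligand norrin, fell in nerve from 17.4 and 21.4 to 2.95 and 2.54 and went from 29 and 22 to 140 and 148 counts in Schwann cells (-5.02 ± 0.36, 3.2e-07). Bcat1 and Ndp thus went down in the tissue and up in the purified Schwann cells.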

How the data were processed

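Total RNA of whole nerve and of immunopanned Schwann cells was amplified with a single primer isothermal kit without molecular identifiers and sequenced, so that count limits cover counting error only. Per the submitters' processing notes and the file headers, the authors used STAR and RSEM on the Rnor_6.0 build of the rat and deposited expected counts per gene, which need not be whole and are not normalized. The authors also deposited FPKM values from the same RSEM run, normalized for gene length and library size. Whether the counting used strand is not given in the sources used here. Totals ranged from 10555067 to 27562637 expected counts over 16 libraries. No column of per-sample values was left out for want of a sample. A matrix of the same counts and a table of Schwann cell modules were not used.

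Expected counts were rounded, filtered with filterByExpr and tested with edgeR 4.0.16 (R 4.3.3), by TMM normalization and the quasi-likelihood test, in a fit of the 8 whole nerve libraries for day 7 against uncrushed and against day 3, and of all 16 libraries for the difference from Schwann cells, with Benjamini-Hochberg adjusted p below 0.05 called. Standard errors were taken from the F statistic (fold change on the log2 scale over its square root). An exact permutation test of 2 against 2 libraries cannot go below p = 0.333, and none was used. Where no library of a group exceeded 3 counts, a bound replaces the fold against uncrushed, computed with 3 counts per library there, and no size is given for the difference between tissues. Of 200 changed genes planted in simulated data for day 7 against uncrushed (15475 genes), 63 of 66 were recovered at 4-fold, 47 of 67 at 2-fold and 20 of 67 at 1.5-fold, with 11 false calls of 141. The planted genes were drawn from those with higher counts and were far fewer than the genes called here. Spread came from the fitted trend alone, without differences in attached tissue. These rates need therefore not hold for the real comparison.

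The comparison and the 35 gene lists (840 genes) were chosen with earlier results of these data known. Named genes are the 12 highest and 12 lowest calls without overlap and with a mean FPKM of at least 10, in each list the first pair of members and those with the highest and lowest fold, and, with the same FPKM minimum in a whole nerve group, the 5 highest and 5 lowest called differences from day 3 and from Schwann cells (there in uncrushed or day 7 nerve only), 163 in all, and 13 more were chosen after their values were seen, as were members named because 5 or fewer of a list were called. Some items that met these rules are not reported here. Alternatives were DESeq2 1.42.0, other scalings, filters and library sets, a replicate block and leaving out each library. Promoters came from RefSeq (GRCr8), and no coordinates of Rnor_6.0 were used. Figures were drawn with matplotlib 3.10.9 in Python 3.11.15.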

Additional observations from a re-analysis of the deposited data

Results flagged for a closer look

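Each value here is a tested difference between effects, flagged because the effect of the injury differed between days or between whole nerve and Schwann cells. Between day 7 and day 3 the effect differed for 3358 genes, and between whole nerve and Schwann cells the day 7 effect differed for 4367 genes. The largest rises from day 3 to day 7 by the naming rule were those of Cldn19 (5.34 on the log2 scale), Mag (5.14), Prx (4.65), Kcnj10 (4.0) and Ncmap (3.69), and the largest falls were those of Spp1 (-3.12), Gdnf (-3.03), Rgs16 (-2.57), Mt2A (-2.34) and Edn3 (-2.22). In each of these genes both day 7 libraries lay on the same side of both day 3 libraries.

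Between tissues, the genes of the naming rule with more than 3 counts in a library of every group had these log2 differences, whole nerve minus Schwann cells: Bcat1 (-5.15), Ndp (-5.02) and Mest (-4.13, an imprinted hydrolase). Mest had 37 and 15 counts in uncrushed Schwann cells and 395 and 370 at day 7. For the other genes of the naming rule no library of one group exceeded 3 counts, so that only the edgeR adjusted p of the difference is given. The effect was higher in whole nerve for Sfrp5 (edgeR adjusted p = 1.2e-07), Pla2g2a (0.00042, a secreted phospholipase), Cxcl9 (0.0019, a chemokine induced by interferon), Slpi (0.029) and Col1a2 (0.01), and lower for Rab3b (7.2e-05) and Ptgr1 (0.0042, a reductase of prostaglandins). The call of Slpi was lost without either day 7 Schwann cell library, either uncrushed Schwann cell library or uncrushed whole nerve replicate 1 (edgeR adjusted p = 0.0502 to 0.0972), and that of Col1a2 without uncrushed replicate 1 of Schwann cells or of whole nerve (edgeR adjusted p = 0.054 in both). Pla2g2a had 13 and 5 counts in uncrushed Schwann cells and 0 and 0 at day 7, Cxcl9 had 3 and 2 against 0 and 0, Slpi had 1 and 1 against 0 and 0, and Ptgr1 had 0 and 0 against 16 and 3. Col1a2 was listed at or near 0 in 5 of 8 whole nerve libraries, so that its call is uncertain.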

How the results depend on the processing

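There were 2 pools a group, and markers of attached muscle, fat and blood differed between libraries. Age and injury cannot be told apart, since the day 7 nerves were collected after a further week of growth. The count of day 7 against uncrushed (4954) ranged from 3802 to 4001 when 1 library was left out (1881 to 2037 higher, 1779 to 2016 lower), and from 3822 to 5490 under the other alternatives that kept the call rule, DESeq2 giving 4134. With at least a 2-fold change it was 2096 (1133 higher, 963 lower), and by the same rule 1073 genes (581 higher, 492 lower) differed from day 3 and 2515 (1561 higher, 954 lower) between tissues. Leaving out 1 library gave 1632 to 2512 genes against day 3 (740 to 1137 higher, 892 to 1375 lower) and 3483 to 4318 between tissues. DESeq2 called 2873 against day 3 and 4167 between tissues. The cause of these shifts was not tested.

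Replicate numbers do not pair the libraries, since the correlations of deviations between groups ran from -0.058 to 0.084. With the number as a replicate block, 5115 genes differed from uncrushed, 3634 from day 3 and 4289 between tissues.

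Genes that changed direction had small or unstable differences that were not called in the main fit, though some were called in other fits, those without 1 library included. With no filter, Hba1 (-1.26), Hba2 (-0.77), Plin1 (-0.37) and Cldn1 (0.287) were called. With all 16 libraries, Pdgfra stood at 0.0064, Pecam1 at 0.078 and Rpl10 at 0.0195. Pecam1 stood at 0.0079 without the filter and 0.036 with upper quartile scaling, and Adipoq at -0.000837 with median of ratios scaling. Over the fits without 1 library, the log2 fold change ran from -0.35 to 5.04 for S100a9, -0.067 to 0.698 for Cldn1, -0.088 to 0.064 for Pecam1, -0.305 to 0.075 for Rgs5, -0.104 to 0.194 for Pdgfrb, -0.39 to 0.55 for Adipoq, -0.801 to 0.25 for Plin1, -1.98 to 0.074 for Hba1, -1.46 to 0.44 for Hba2, -0.072 to 0.46 for Tyms, 0 to 4.24 for Mmp9, -0.297 to 0.61 for Pfkfb3, -0.326 to 0.1001 for Col11a1 and -0.197 to 0.073 for Rpl10.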
